A study of Mus musculus with 26 samples.

Results

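C/EBPalpha binding in mouse liver was compared between the start of regeneration, 0 h, and its end, 168 h after partial hepatectomy. The assay was ChIP-seq, in which DNA bound by a protein is pulled down with an antibody and sequenced. Of 29383 regions deposited for 0 h and 25972 for 168 h, the top-scoring ones were kept, as many as the shortest C/EBP list of the series holds. A region is shared when the centre of a region of the other list lies within 100 bp, which holds for 11622 regions. The remaining 8439 regions of each list (42.1%) are called 168 h alone and 0 h alone. All C/EBP lists of the series hold 489556 regions.

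The animals were wild-type male C57BL6/J mice of 7 weeks. In the operation 3 of 5 liver lobes were removed, so the 0 h sample is resected tissue of the same kind of mouse and the 168 h sample is the remaining liver 168 h later. No sham-operated group and no genetic change are named in the labels. Every combination of antibody and time has 1 sample. It came from 5 mice, with no word in the labels on pooling. Without replicates no difference between the times can be set against biological spread. The intervals given are 95% intervals for counting error over regions or genes only, and neighbouring regions are not independent. RNA polymerase II (Pol II) was profiled at both times in the same way. Read depth is unknown because the files give no counts. No source used here names library batches, so batch and time cannot be told apart. A mock immunoprecipitation of 0 h is not used here, and values are not over its background.

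C/EBPalpha is a leucine-zipper transcription factor that maintains the differentiated hepatocyte. It drives genes of glucose, lipid, amino acid and plasma protein metabolism and restrains proliferation. C/EBPbeta has a closely related DNA-binding domain, binds the same palindromic site as a homo- or heterodimer, and is known for its role in the acute phase and in liver growth. After lobes are removed, the remaining hepatocytes enter the cell cycle, the liver regains its mass within days, and it then returns towards rest.

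Promoters with a region of each class are shown first, because the classes differed in how they lay to gene starts and in the sequence there. Each line holds 80 bases upstream of a RefSeq gene start in the build GRCm38.p6, 5′ to 3′ along the gene. Capitals mark a match to the C/EBP half-site pair TTGCNNAA on either strand. All have a region centre in the 250 bp upstream of the start, and for the classes of 1 time the other list had no region within 1 kb. They were picked by motif: for each class the highest-ranking genes with a match, and then the highest-ranking gene without one. The number of lines with a match therefore says nothing of how common it is, and the shares over each class follow the sequences. Bases under the regions were not read, and a match in the promoter need not lie inside the region. Promoters with a 168 h region and a match were those of Irf2 (an interferon regulatory factor, chr8:46739591-46739670, plus strand) and Mks1 (a ciliary gene, chr11:87853132-87853211, plus). Further ones were those of Lnpep (an aminopeptidase, chr17:17624549-17624628, minus) and Jund (an AP-1 subunit, chr8:70697551-70697630, plus). In that order, region centres lay at -187, -92, -51 and -238 bp from the gene start. The matches lay at -114, -43, -99 and -148 bp from the RefSeq start. Nudt5 (a nucleotide hydrolase, chr2:5844931-5845010, plus) had the highest-ranking 168 h region at a promoter without a match.
Irf2: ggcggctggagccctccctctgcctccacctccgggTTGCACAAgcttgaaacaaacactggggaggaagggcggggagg
Mks1: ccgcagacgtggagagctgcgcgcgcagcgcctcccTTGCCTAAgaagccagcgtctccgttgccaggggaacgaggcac
Lnpep: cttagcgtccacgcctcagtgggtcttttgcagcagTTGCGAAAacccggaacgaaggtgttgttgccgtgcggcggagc
Jund: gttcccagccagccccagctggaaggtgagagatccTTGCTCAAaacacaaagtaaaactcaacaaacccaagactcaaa
Nudt5: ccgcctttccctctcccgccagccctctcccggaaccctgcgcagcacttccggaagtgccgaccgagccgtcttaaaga

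The corresponding promoters with a region at 0 h and none within 1 kb at 168 h were those of Cyp3a25 (a cytochrome P450, chr5:146009663-146009742, minus), Cyp2c67 (another P450, chr19:39649084-39649163, minus) and Slc3a1 (a subunit of an amino acid transporter, chr17:85028249-85028328, plus), and without a match Cfap57, a ciliary gene listed as Wdr65 in the Pol II files (chr4:118620786-118620865, minus). Shared regions of high rank at both times lay at Aacs (acetoacetyl-CoA synthetase, chr5:125475624-125475703, plus), Angptl8 (a secreted regulator of lipoprotein lipase, listed as EG624219 in the Pol II files, chr9:21835374-21835453, plus), Ahsg (the plasma protein fetuin-A, chr16:22891935-22892014, plus) and Prmt3 (an arginine methyltransferase, chr7:49778263-49778342, plus), and without a match at Serpinf1, a secreted serpin (chr11:75422693-75422772, minus). Of these, Prmt3 carries the full palindrome TTGCGCAA.
Cyp3a25: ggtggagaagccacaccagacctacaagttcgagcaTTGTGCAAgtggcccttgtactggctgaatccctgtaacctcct
Cyp2c67: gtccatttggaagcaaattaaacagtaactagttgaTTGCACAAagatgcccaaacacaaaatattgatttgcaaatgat
Slc3a1: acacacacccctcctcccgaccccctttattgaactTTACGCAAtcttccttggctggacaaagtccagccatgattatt
Cfap57: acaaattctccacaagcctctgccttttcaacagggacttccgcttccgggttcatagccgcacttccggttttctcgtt
Aacs: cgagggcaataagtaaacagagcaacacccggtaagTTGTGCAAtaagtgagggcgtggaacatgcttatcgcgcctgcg
Angptl8: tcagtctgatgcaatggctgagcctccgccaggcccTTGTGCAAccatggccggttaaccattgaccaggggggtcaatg
Ahsg: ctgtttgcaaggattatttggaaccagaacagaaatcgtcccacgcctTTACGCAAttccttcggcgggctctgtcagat
Prmt3: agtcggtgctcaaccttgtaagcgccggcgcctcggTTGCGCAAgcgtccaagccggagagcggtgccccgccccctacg
Serpinf1: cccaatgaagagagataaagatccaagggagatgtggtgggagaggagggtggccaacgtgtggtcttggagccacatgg

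Across all genes of a class, the half-site pair was less frequent in promoters with a region of 168 h alone than in those with a shared region. Promoters here are the 300 bases from 250 before to 50 after the RefSeq start, for genes with a region centre in that window. The pair TTGCNNAA was in 77 of 452 promoters of 168 h alone (17.0%, Wilson interval 13.9 to 20.8), in 134 of 416 with a shared region (32.2%, 27.9 to 36.8) and in 29 of 99 of 0 h alone (29.3%, 21.2 to 38.9). It was in 10.8% of all 27025 RefSeq promoters and in 9.25% of the 3588 matched promoters of genes tested for Pol II. The palindrome TTGCGCAA, which is contained in the pair, was in 17 of 416 shared promoters (4.09%), in none of the 452 of 168 h alone (Wilson upper limit 0.843%) and in none of the 99 of 0 h alone (upper limit 3.74%). All RefSeq promoters held it in 0.185% of cases.

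Other motifs and the CpG count also differed between the classes, with 99 promoters for 0 h alone. The ETS core CCGGAAG was in 19.7% of promoters of 168 h alone, 13.7% of shared ones and 10.1% of those of 0 h alone, against 18.6% of promoters of genes tested for Pol II. The median number of CpG dinucleotides was 18 in promoters of 168 h alone, 16.5 in shared ones and 12 in those of 0 h alone, against 19 for genes tested for Pol II and 17 for all measured genes. The classes of 168 h alone and shared thus lay near those medians and 0 h alone below them. With the other time's regions more than 1 kb away, the median was 19 for 168 h (272 promoters) and 8 for 0 h (32 promoters). The SP/KLF box GGGCGG was in 50.9%, 49.8% and 40.4% of the promoters of 168 h alone, shared and 0 h alone, all below the 61.3% of genes tested for Pol II. The CCAAT box, CCAAT on either strand, went the other way with 45.1%, 44.5% and 55.6%, against 39.7% of genes tested for Pol II. For each of these motifs the Wilson intervals of 168 h alone and 0 h alone overlapped. They were 16.3 to 23.6 and 5.58 to 17.6 for ETS, and 46.3 to 55.5 and 31.3 to 50.3 for SP/KLF. For CCAAT they were 40.6 to 49.7 and 45.7 to 65.0. The same motifs were found in RefSeq promoters by gene symbol, 14289 of 20933 measured genes matched, and a match is a run of letters, not a binding site.

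Strong binding was common to both times. Of the 1000 top-ranking regions, 463 were in the top 1000 of the other list too. In the top 1000, 65 regions of 0 h (6.50%) and 35 of 168 h (3.50%) were alone. In the lowest 5061 ranks the shares alone were 68.0% and 68.4%. The median rank was 13763 for 168 h alone, 13710 for 0 h alone and 6993.5 at 0 h for shared regions.

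Many of the strong regions alone lay close to a region of the other time. The centres of neighbouring regions within 1 list were at least 223 bp apart at 0 h and 236.5 bp at 168 h. Between the lists, 8280 nearest centres lay within 50 bp, 3342 at 51 to 100 bp and 951 at 101 to 150 bp. Among the regions alone in the top 1000, 27 of 35 at 168 h and 52 of 65 at 0 h had a centre of the other full list within 250 bp. When a region was required to have no centre within 1 kb in the other full list, 4018 regions of 168 h (20.03%) and 4829 of 0 h (24.1%) remained, called set apart below. None of them was in the top 1000 at 168 h and 1 was at 0 h. The last definition was chosen after the values were seen.

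**Figure D1:**
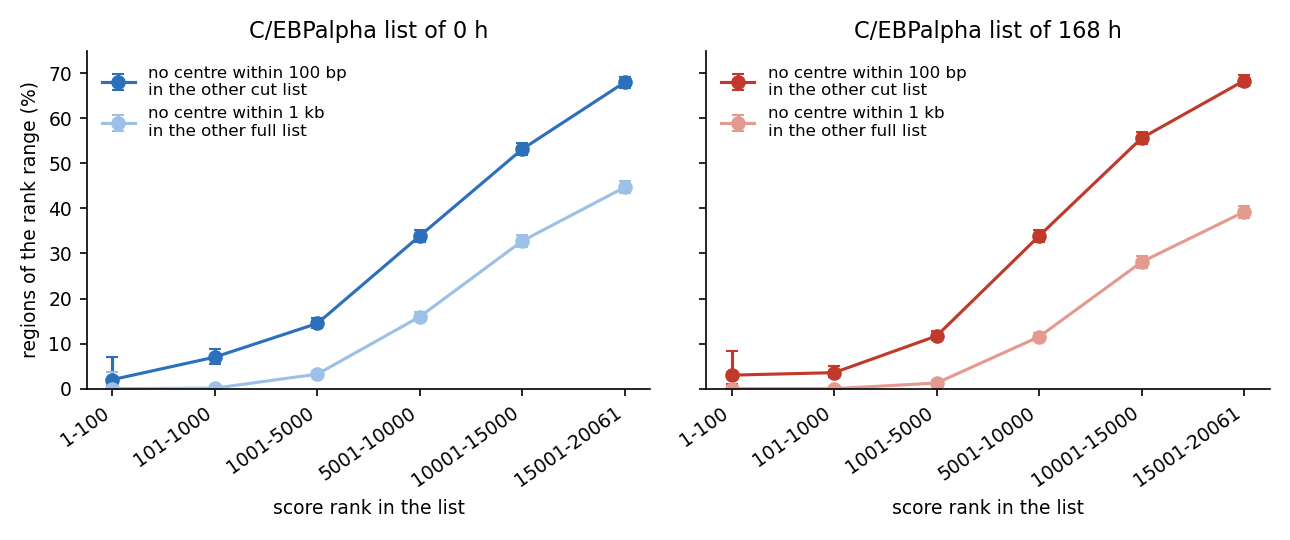
Share of regions (y axis, %) found at 1 time only against score rank (x axis), for the 0 h list (left) and the 168 h list (right), with Wilson 95% intervals. Dark points are regions with no centre within 100 bp in the other cut list and pale points regions with none within 1 kb in the other full list. The dark points go from 2 and 3 regions of the top 100 to 68.0% and 68.4% in the lowest ranks, and the pale points stay at 0 or 1 region in the top 1000.

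The 10 strongest regions of 168 h alone lay nearest to Rassf6, Trib2, Ank, Ntn3, Iffo2, Igfbp1, Cryzl1, Nfil3, Auh and G6pc. All 10 had a centre of the 0 h list within 500.5 bp, and 7 of them within 122 bp. The region nearest to G6pc, the last enzyme of glucose release, was at chr11:101240532-101240557 (mm9), 11514 bp past the start, rank 356, with a 0 h centre 112 bp away. Pol II on G6pc, a signal per base after rescaling, was 10.9 at 0 h and 46.9 at 168 h. Igfbp1, which binds insulin-like growth factors in plasma, had its region 4855 bp upstream at rank 182 with a 0 h centre at 113 bp, and Pol II of 33.7 and 37.1. Nfil3, a leucine-zipper repressor of the clock, had its region 299 bp upstream at rank 245, with a 0 h centre at 378 bp.

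The 10 strongest regions of 0 h alone lay nearest to Sephs2, Trib2, Gprin3, Trib1, Fn1, Col19a1, Auh, Slc16a7, Ntn3 and Plxna2. The strongest, rank 40, was 710 bp upstream of Sephs2, which makes the selenium donor for selenoproteins, at chr7:134418131-134418156. The nearest 168 h centre was 381 bp from it. Pol II on Sephs2 was 105 at 0 h and 44.6 at 168 h. A region near Trib1, a pseudokinase that brings C/EBPalpha to degradation, had rank 112 and a 168 h centre at 184 bp. Only the region nearest to Col19a1, a collagen gene, had no 168 h centre within 1 kb. It had rank 120, lay 24092 bp upstream and was in 7 of the 14 other C/EBP lists. Trib2, Ntn3 and Auh were in both sets of 10, with regions of the 2 times 153, 122 and 500.5 bp apart.

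The strongest regions set apart, named after their values were seen, had lower ranks. At 168 h the first was 187 bp upstream of Irf2, chr8:47824915-47824942 (mm9), at rank 1448, and it was in 13 of 14 other lists. Its nearest 0 h centre was 2729 bp away. In the same gene a shared region 2542 bp past the start went from rank 2190 at 0 h to rank 19015 at 168 h, among the 10 largest falls. Pol II on Irf2 was 0.818 at 0 h and 2.03 at 168 h. The third, rank 2133, was 4439 bp upstream of Lcn2, the acute phase protein lipocalin 2, whose Pol II was -1.26 and 4.86. It lay nearer to the start of Ptges2, a prostaglandin synthase, whose Pol II was -0.14 and -0.65.

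At 0 h the regions set apart were led by Col19a1 and the gene model AC132287.3-3, followed by Ppap2b, a lipid phosphatase. The region nearest to Ppap2b had rank 1210, lay 302901 bp past the start and was in 13 of 14 other lists. The region nearest to Acsl1, which activates long-chain fatty acids, had rank 1574, lay 89492 bp upstream and was in 12 of 14. Pol II on Acsl1 was 3.04 and 2.84.

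Regions of 168 h alone lay near gene starts more often than those of 0 h alone. Within 1 kb of a start there were 1466 of 8439 regions of 168 h alone (17.4%, Wilson interval 16.6 to 18.2), 1503 of 11622 shared (12.9%, 12.3 to 13.6) and 713 of 8439 of 0 h alone (8.45%, 7.87 to 9.06). For regions set apart the shares were 20.2% (19.0 to 21.5) at 168 h and 6.21% (5.57 to 6.93) at 0 h. Beyond 100 kb the order turned, with 8.64% of 168 h alone, 10.3% of shared and 12.8% of 0 h alone. Median distances to a start were 13022, 16044.8 and 19476 bp in that order. Upstream of the start lay 888 of the 1466 promoter regions of 168 h alone and 421 of the 713 of 0 h alone.

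The difference held within ranks below the top 100. The promoter share of regions alone at 168 h and 0 h was 18.8% and 7.94% in ranks 101 to 1000 (6 of 32 and 5 of 63 regions), 13.5% and 8.98% in ranks 1001 to 5000, 19.0% and 8.97% in ranks 5001 to 10000, 18.0% and 7.83% in ranks 10001 to 15000, and 16.6% and 8.57% below that. In the top 100, 0 of 3 and 1 of 2 regions alone were near a start. The promoter share of the whole list was 14.8% at 168 h and 11.05% at 0 h. Over the 8 C/EBPalpha lists it ran from 8.998% at 24 h to 15.3% at 48 h, a wider gap than that between 0 h and 168 h, and the C/EBPbeta list of 3 h had 20.9%. The part of such list-wide differences in this result was not tested.

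**Figure D2:**
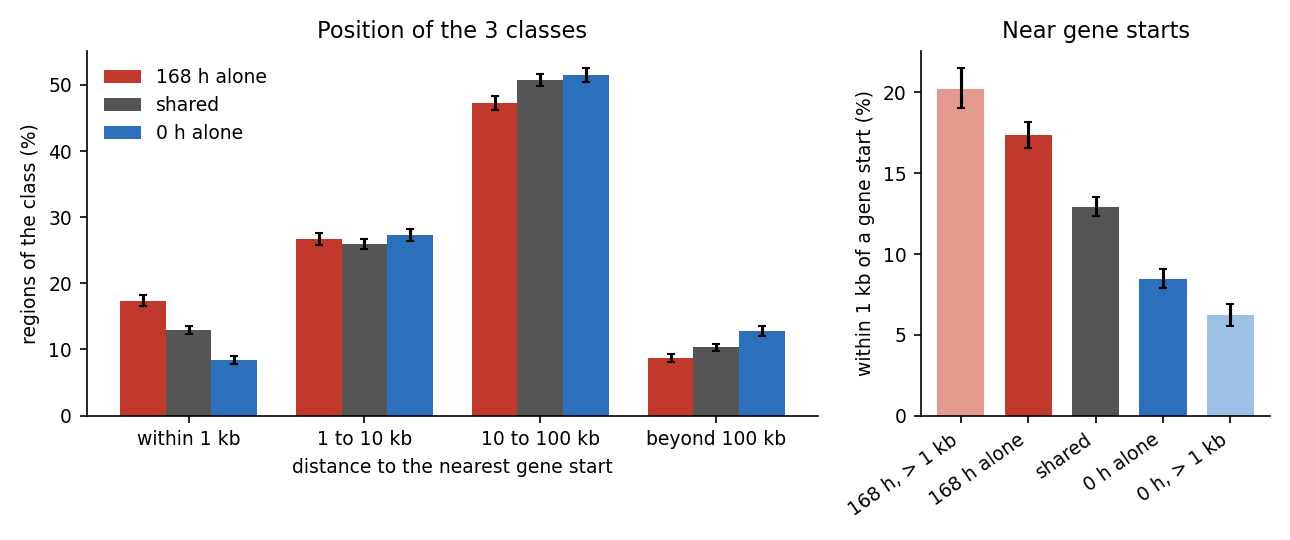
Left, share of regions (y axis, %) by distance to the nearest gene start (x axis) for regions of 168 h alone, shared and 0 h alone, with Wilson 95% intervals. Right, share within 1 kb of a start for the same classes and for regions with no centre within 1 kb in the other full list (> 1 kb), falling from 20.2% for 168 h to 6.21% for 0 h.

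Shared regions near starts moved up the ranking too. A rise is the rank at 0 h minus the rank at 168 h. Over 11622 pairs the median rise was 274.5 ranks (interval 195 to 340), with the middle 50% of pairs from -2847.75 to 3186, and Spearman's rank correlation was 0.581, given as a description across regions, which share both libraries. The 1503 pairs within 1 kb of a start had a median rise of 1307 (1061 to 1491), and the 1201 pairs beyond 100 kb a median of -351 (-671 to -26). Rises of 5000 ranks or more were 23.2% of pairs near starts and falls of that size 9.85%. Beyond 100 kb the shares were 14.2% and 19.7%.

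**Figure D3:**
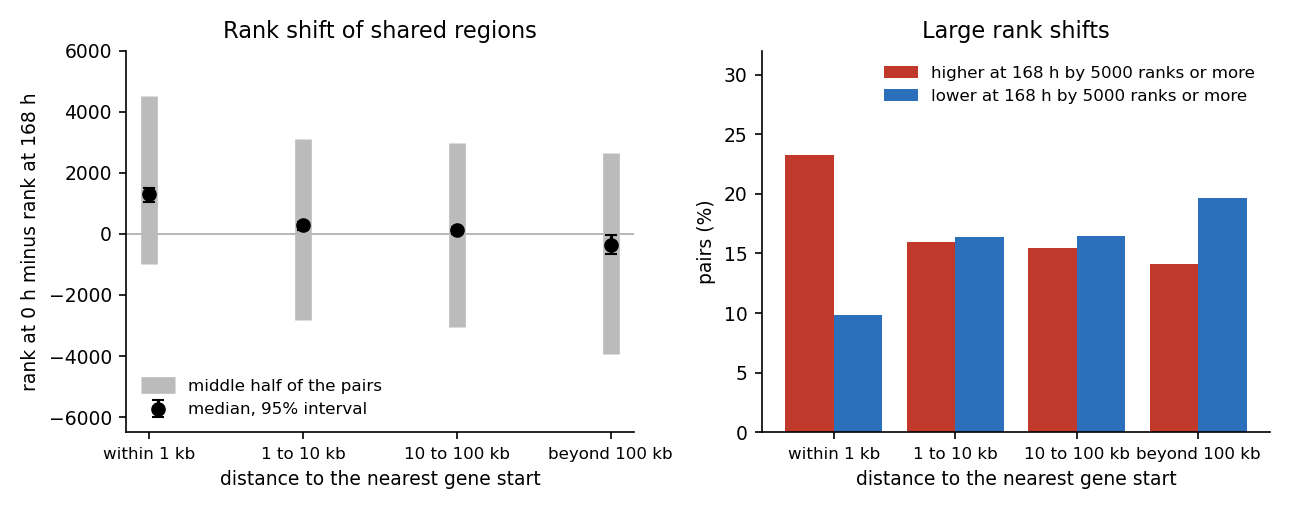
Rank shift of shared regions by distance to the nearest gene start (x axis). Left, median rank at 0 h minus rank at 168 h with its 95% interval, and the middle 50% of pairs in grey. Right, share of pairs (%) that rose or fell by 5000 ranks or more. Near starts rises outnumber falls, 23.2% to 9.85%, and beyond 100 kb falls outnumber rises.

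The 5 regions with the lowest sum of ranks lay nearest to Noc4l, Ergic1, 9530048O09Rik, Epas1 and 0610025J13Rik. The region nearest to Noc4l held rank 3 at both times. Epas1 encodes HIF-2alpha, an oxygen-sensing factor, and the region 18938 bp upstream of it went from rank 14 to rank 1.

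Among the 10 largest rises were regions nearest to A1cf, the RNA-binding partner of apolipoprotein B editing, and to Rxra, the common partner of liver nuclear receptors. The A1cf region, 18708 bp past the start, went from rank 19833 to rank 2337, and Pol II on A1cf was 0.183 and 0.661. The Rxra region, 7129.5 bp upstream, went from rank 19912 to rank 3181, with Pol II of 8.02 and 8.44. The first of the 10 was nearest to D230039L06Rik, from rank 18784 to rank 618, and others to Snx29, Chac1, RP23-287C12.1, Wdsub1, Abhd10 and RP23-17P18.3. Of the 10 regions, 9 started at a score of 38, the lowest score kept at 0 h, where 1420 of 2497 tied regions entered the list by position.

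Among the 10 largest falls were regions nearest to Tlr2, Cyp4v3, Nqo2, Elk4, Irf2, Ncam1, Mtf1, AC162790.2 and Aff1. All 10 ended at scores of 16 to 18, at or near the lowest score kept at 168 h, 16, where 836 of 1581 tied regions entered the list by position. The region nearest to Tlr2, a receptor for bacterial lipoproteins, was 94281 bp upstream and went from rank 746 to rank 18575. Cyp4v3, a fatty acid hydroxylase, had its region 3410.5 bp past the start, from rank 1681 to rank 19013, with Pol II of 0.171 and 0.545. The Nqo2 region, at a quinone reductase, went from rank 925 to rank 18036. Pol II on Elk4, an ETS factor, was 0.188 and 1.14, although the region 922.5 bp upstream went from rank 2230 to rank 19282.

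Regions of 168 h alone were found in lists of other times and of C/EBPbeta, but unevenly. The C/EBPalpha list of 48 h held 58.7% of them, and those of 3, 8, 16, 24 and 36 h held 43.7%, 27.5%, 34.3%, 25.9% and 41.8%. Of the C/EBPbeta lists, that of 0 h held 18.6%, those of 3, 8, 16 and 24 h held 58.4%, 42.7%, 33.8% and 26.4%, and those of 36, 48 and 168 h held 53.2%, 57.7% and 57.2%. The 3 h and late lists of C/EBPbeta thus held more of them than its 0 h and 24 h lists. Near gene starts, 73.1% of regions of 168 h alone were in the C/EBPbeta list of 3 h and 16.0% in that of 0 h.

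Regions of 0 h alone ran the other way. The C/EBPbeta list of 0 h held 34.97% of them and those of 8, 16 and 24 h held 37.1%, 34.4% and 33.4%. The 3 h list held 11.9%, and those of 36, 48 and 168 h held 17.2%, 18.9% and 21.2%. Among C/EBPalpha lists it was 36.4%, 34.1%, 34.5% and 36.8% from 3 to 24 h, 24.4% at 36 h and 14.8% at 48 h. Shared regions were in 69.0% to 86.4% of cases in the C/EBPbeta lists.

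For regions set apart the contrast was wider at several times. The C/EBPbeta list of 3 h held 60.5% of those of 168 h and 6.59% of those of 0 h, and that of 0 h held 9.18% and 29.1%. None of the 14 other C/EBP lists held 508 regions of 168 h alone (6.02%), 1745 of 0 h alone (20.7%) and 38 shared ones (0.327%).

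C/EBPbeta at the matching time separated the classes. Of the regions of 168 h alone, 3680 (43.6%) were in the C/EBPbeta list of 168 h and not in that of 0 h, and 424 (5.02%) the reverse. Of those of 0 h alone, 2046 (24.2%) were in the 0 h list and not in that of 168 h, and 888 (10.5%) the reverse. Shared regions leaned to 168 h as well. Of these, 2800 (24.1%) were in the C/EBPbeta list of 168 h and not in that of 0 h, and 787 (6.77%) the reverse. These lists come from separate libraries of the same time points, and what they share besides the factor was not tested. Among C/EBPalpha lists, the 168 h list shared most regions with 48 h (72.5%) and the 0 h list with 3 h (64.3%). Over the 28 pairs of C/EBPalpha lists sharing ran from 47.1% to 72.5% with a median of 57.1%, so 0 h and 168 h, at 57.9%, lay near the middle.

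**Figure D4:**
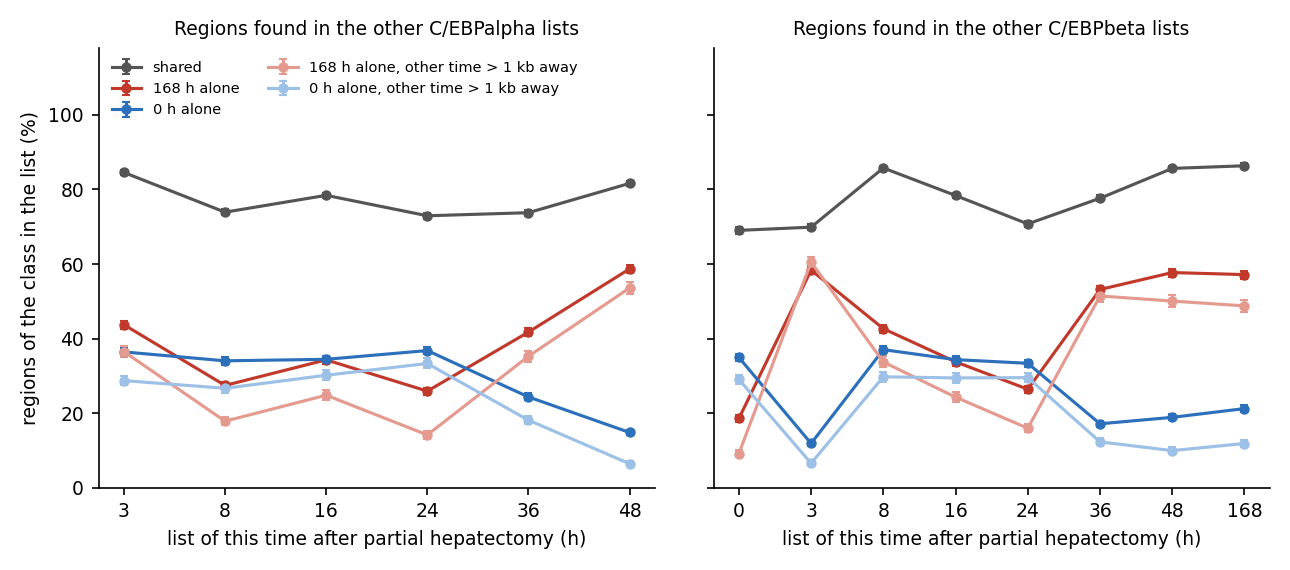
Share of each class (y axis, %) with a region centre within 100 bp in other C/EBPalpha lists (left) and in C/EBPbeta lists (right), all cut to the same length, by time after partial hepatectomy (x axis, h, evenly spaced), with Wilson 95% intervals. Regions of 168 h alone (red) are above those of 0 h alone (blue) at 3, 8, 36, 48 and 168 h in C/EBPbeta lists and below them at 0, 16 and 24 h, with 33.8% and 34.4% at 16 h.

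Some genes held clusters of regions of 1 time. By nearest start, Trib1 had the most regions of 168 h alone, 14, beside 6 of 0 h alone and 16 shared. It was followed by Ptpn1, a phosphatase that dampens insulin signalling, with 12 against 3 of 0 h alone, by Gadd45g, a growth arrest gene, with 11 against 9, and by Irf2bp2, a corepressor, with 11 against 8. Rxra had 9 against 3. Pol II on Ptpn1 was -0.18 at 0 h and 0.336 at 168 h. On Irf2bp2 it was 27.5 and 6.98, and on Gadd45g 9.22 and 3.81. These genes were picked for many regions of 168 h alone, so their counts give no direction to set against Pol II.

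Regions of 0 h alone were most numerous nearest to the gene model AC158396.2-2 with 13 against 4 of 168 h alone, and to Lpp, Nfia and Nrip1 with 12 each against 4, 6 and 4. Lpp is a LIM-domain adhesion protein, Nfia a nuclear factor I and Nrip1 a nuclear receptor corepressor. Bcl6, a repressor active in male liver, had 11 against 7, and Cpeb2, a regulator of translation, 11 against 3. Pol II on Nfia was -0.06 and 0.539, and on Cpeb2 0.111 and 0.574. Lpp and Nfia are long genes, with measured bodies of 258447 and 231680 bp.

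Genes of a list were counted when a region centre lay within 10 kb of their start. As background, 17.1% of measured genes had a region of 168 h alone there, 12.9% one of 0 h alone and 18.9% a shared one. Among genes tested for Pol II, which are better transcribed, the shares were 35.7%, 26.9% and 40.9%. With the other time's regions more than 1 kb away, 9.71% of measured genes had a 168 h region and 7.21% a 0 h region. The gene lists carry no test here and their counts are descriptions.

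Fatty acid oxidation and ketone body genes had regions of 0 h alone more often than of 168 h alone. Of 28 measured members, 16 had a region of 0 h alone, 5 one of 168 h alone and 16 a shared one, and with the stricter distance 10 had a 0 h region and 2 a 168 h region. The share for 0 h alone, 57.1%, was like that of other hepatocyte lists, such as 57.9% for the urea cycle and amino acids and 62.5% for bile acids. The share for 168 h alone, 17.9%, was near that of all measured genes. The best-ranking regions of 0 h alone lay at Hadhb and Hadha, the subunits of the mitochondrial trifunctional protein, which share 1 region at rank 5468, and at Cidec, a lipid droplet protein, at rank 5978. Further ones were at Vnn1, a pantetheinase, at rank 7313 and at Acot3 and Acot4, acyl-CoA thioesterases that share 1 at rank 8138. The 5 genes with a region of 168 h alone were Hadh at rank 6411, Acot1 at 8186, Cpt1a at 10771, Acaa1b at 14984 and Angptl4 at 18298. Of 20 members tested for Pol II, 0 were higher at 168 h by 1 or more on the log2 scale and 4 were lower, 8 without rescaling. Over all tested genes 17.7% were higher and 19.3% lower, or 6.13% and 33.6% without rescaling, so the share of lower members was near that of all genes. Within 1 kb of the start the counts were 1 and 1, so these regions lie off the promoters.

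Bile acid genes had 15 of 24 members with a region of 0 h alone, 8 with 168 h alone and 15 shared. The best ranks at 0 h were 2338 at Hsd3b7, an enzyme of bile acid synthesis, 4274 at Abcb11, the bile salt export pump, and 6313 at Abcg8, a sterol transporter. At 168 h the best were 7270 at Cyp8b1, the sterol 12-hydroxylase, and 9902 at Akr1c6. Pol II on Cyp8b1 was 70.1 at 0 h and 23.0 at 168 h, and on Hsd3b7 13.6 and 6.97. These 2 do not stand for the list. Of 21 tested members, 6 were higher at 168 h by 1 or more on the log2 scale and 1 was lower. Without rescaling 1 was higher and 4 were lower. The shares of all tested genes were 17.7% higher and 19.3% lower, or 6.13% and 33.6% without rescaling.

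Cytochromes P450 and other drug-metabolising enzymes had 28 of 65 members with a region of 0 h alone, 19 with 168 h alone and 29 shared. By the stricter distance 20 had a 0 h region and 6 a 168 h region. Among those of 0 h alone were Gsta3, a glutathione transferase, at rank 2377, Ephx1, an epoxide hydrolase, at 2384, Cyp4a10 at 2828, Por, the electron donor of P450s, at 3031 and Cyp3a25 at 4344. Those of 168 h alone included Por at rank 2970, Gstm1 at 4479 and Cyp2d26 at 8387, each with a 0 h centre of the full list within 1 kb. Pol II on Cyp3a25 was 3.29 and 7.00, and on Cyp2d26 16.2 and 4.53. Within 1 kb of the start the order turned, with 12 members for 168 h alone and 8 for 0 h alone. These genes lie in clusters of close copies, so reads and nearest genes may be split among neighbours.

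Genes of G2/M and mitosis showed the reverse. Of 31 measured members, 10 had a region of 168 h alone, 2 one of 0 h alone and 6 a shared one. The share for 168 h alone, 32.3%, was above that of all measured genes and below that of genes tested for Pol II, and 5 of the 31 passed that filter. The best ranks at 168 h were 6265 at Birc5, survivin, 11751 at Mad2l1, a spindle checkpoint protein, 12026 at Nuf2, a kinetochore protein, 14092 at Aurkb, a mitotic kinase, and 14452 at Cdc25c, a mitotic phosphatase. The Nuf2 region was 63 bp and the Mad2l1 region 236 bp upstream of the start. The 2 genes with 0 h regions were Ect2 at rank 7646 and Birc5 at 14265. Pol II on the 5 named 168 h genes ran from -0.46 (Aurkb at 168 h) to 0.20 (Aurkb at 0 h), near or below 0, and none of them passed the filter on low signal.

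Acute phase genes had shared regions almost throughout, 26 of 27, with 16 for 168 h alone and 11 for 0 h alone. The stricter distance left 11 for 168 h and 1 for 0 h. Shared regions of high rank lay at Orm1, an acid glycoprotein, with rank 63 at 0 h and 7 at 168 h, at Saa3 with ranks 172 and 692, and at Stat3, which carries interleukin-6 signals, with ranks 269 and 2113. The best ranks of 168 h alone were 2133 at Lcn2, 4351 at Hp (haptoglobin), 5092 at Fga and 5576 at Fgg (fibrinogen chains) and 6695 at C3. Hp, Fga, Fgg and C3 also had regions of 0 h alone, at ranks 2679, 3976, 2027 and 11499. Of the named 168 h regions, only those at Lcn2 and C3 had no 0 h centre within 1 kb. Pol II was higher by 1 or more on the log2 scale at 168 h on 16 of 25 tested members, 10 without rescaling of the libraries, and lower on 2. The shares of all tested genes were 17.7% higher and 19.3% lower, or 6.13% and 33.6% without rescaling. On Orm1 it was 2.43 and 14.3, on Fgg 9.28 and 25.4, and on Lcn2 -1.26 and 4.86. Orm1, Orm2 and Orm3 share their region of 168 h alone, at rank 12596, and Orm2 and Orm3 share a further one of both times, so these are not separate cases.

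Immediate early genes had 12 of 25 members with a region of 168 h alone, 7 with 0 h alone and 15 shared. The best ranks of 168 h alone were 3212 at Zfp36, an RNA-decay factor, 5483 at Klf6, 6857 at Jund, 6860 at Junb and 8316 at Fos. Pol II was lower by 1 or more at 168 h on 12 of 17 tested members, 13 without rescaling, and higher on 1, or 0 without rescaling. Over all tested genes 19.3% were lower and 17.7% higher, or 33.6% and 6.13% without rescaling. On Zfp36 it was 166 at 0 h and 41.9 at 168 h, on Junb 74.6 and 15.4, and on Jund 40.9 and 4.72. The 0 h tissue is the resected lobes, and what part the operation has in its level was not tested.

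Amino acid and urea cycle genes had equal counts, 22 of 38 for each time alone, with 25 shared. By the stricter distance the count was 8 for each time. Hgd, an enzyme of tyrosine breakdown, had a region of 0 h alone at rank 688 and one of 168 h alone at 5528, with Pol II of 1.19 and 6.34. Slc25a15, the mitochondrial ornithine carrier, had ranks 960 and 1183 and Pol II of 1.10 and 8.01, and Ass1, of the urea cycle, ranks 1542 and 1234 and Pol II of 22.2 and 30.5. The Ass1 regions of 0 h and 168 h were 5764 and 5877 bp upstream and those of Hgd 7902 and 8307 bp. The regions of the 2 times thus lie close together at Ass1 and Hgd. At Slc25a15 they do not, with the 168 h region 2220 bp upstream and the 0 h region 7351 bp past the start. Clock genes also had equal counts, 13 of 18 in each class, and by the stricter distance 5 for 168 h and 7 for 0 h. Nfil3 had a region at rank 245 of 168 h alone and 2518 of 0 h alone. Per1 had a region at rank 1610 of 168 h alone and 4863 of 0 h alone, with Pol II of 4.39 at 0 h and 0.86 at 168 h. It was the only 1 of 11 tested clock genes lower by 1 or more on the log2 scale, and 0 were higher. Without rescaling 5 were lower and 0 higher. The median change of the 11 was -0.29.

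The lists of plasma proteins, lipid synthesis, liver transcription factors and complement had much the same number of members for either time. Plasma proteins had 29 of 40 members with a region of 168 h alone, 26 with 0 h alone and 34 shared. Lipid synthesis had 16, 15 and 21 of 27, liver transcription factors 17, 15 and 18 of 29, and complement 10, 8 and 11 of 22. By the stricter distance, liver transcription factors had 9 members for 168 h and 4 for 0 h, and plasma proteins 12 and 12. Genes of glycolysis, gluconeogenesis and glycogen had 12, 11 and 16 of 24. DNA replication and G1/S genes had 9, 6 and 8 of 35, shares of 25.7%, 17.1% and 22.9% that lie between those of all measured genes and of genes tested for Pol II.

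Of the C/EBP family, 5 of 6 measured members had a region of 168 h alone, 3 one of 0 h alone and 4 a shared one. Cebpa itself had a shared region 8690 bp past the start, from rank 5097 to rank 11796, and Pol II of 93.2 at 0 h and 23.2 at 168 h. Cebpa also had a region of 168 h alone at rank 4516, 7795.5 bp past the start, and one of 0 h alone at rank 9596. Each of these had a region of the other time within 1 kb. Cebpb had a shared region 1041 bp upstream, from rank 3091 to rank 1585, and Pol II of 56.5 and 13.9. Cebpg, a partner without an activation domain, had a 168 h region 54 bp upstream at rank 12775 and Pol II of 0.151 and 1.07. Ddit3, the stress factor CHOP, had regions of 168 h alone at rank 698 and of 0 h alone at rank 724, 2673 and 2783.5 bp upstream, so these lie close together.

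Pol II was compared over gene bodies. The signal per base was rescaled between libraries, set to 0 where negative, raised by 0.5 and put on the log2 scale, for 4761 genes above 0.5 in at least 2 of 8 Pol II libraries. In bulk liver, fewer cells of a type and less signal per cell cannot be told apart. The summed signal of 12 hepatocyte markers was 527 at 0 h and 540 at 168 h, all 12 above 0.5. That of 12 macrophage markers was 7.79 and 10.5, and that of 8 neutrophil markers 6.04 and 0.720, 6 of them at or below 0 at both times. The sum of 13 stellate cell and fibroblast markers was 3.404 and 6.11, and that of 7 cholangiocyte markers 4.95 and 1.602. That of 12 endothelial markers was 5.06 and 5.52, and that of 12 lymphocyte markers 1.72 and 1.19. At or below 0 at 0 h and 168 h were 5 and 0 macrophage markers and 10 and 8 stellate cell and fibroblast markers. The numbers were 6 and 5 for cholangiocyte, 5 and 4 for endothelial, and 10 and 8 for lymphocyte markers. Only 1 cholangiocyte marker was above 0.5 at either time, Onecut1, at 4.95 and 1.36. The part of cell types in the Pol II differences was not tested.

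Genes nearest to regions of 0 h alone had a higher median Pol II change towards 168 h than genes nearest to regions of 168 h alone, with or without rescaling of the libraries. Over all tested genes the median change was 0.00, with 17.7% higher by 1 or more on the log2 scale and 19.3% lower, and changes are relative to the genes used for rescaling. Of 1060 tested genes with a region of 0 h alone as a near neighbour within 10 kb, 19.2% were higher (interval 17.0 to 21.7) and 13.0% lower (11.1 to 15.2), with a median of 0.18 (0.11 to 0.26). For 1339 genes of 168 h alone 15.7% were higher (13.8 to 17.7) and 18.8% lower (16.8 to 21.0), with a median of 0.00. Genes of shared regions, 1618, had 17.7% and 15.5% and a median of 0.09. The 2088 tested genes with no such region had 18.2% and 22.4%.

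The 3 gene sets overlap, since 907 genes had regions of both times alone. For genes with 1 class only, the median was 0.24 (0.12 to 0.40) for 278 genes of 0 h alone and -0.08 (-0.21 to 0.00) for 521 of 168 h alone. With regions set apart it was 0.32 (0.22 to 0.41) for 540 genes at 0 h and -0.05 (-0.13 to 0.00) for 707 at 168 h. Shared regions that fell by 5000 ranks or more had genes with a median of 0.33 (0.15 to 0.52), and those that rose as far had 0.00 (-0.11 to 0.09). Without rescaling the median of all tested genes was -0.52, with 168 h alone at -0.68 and 0 h alone at -0.43, so the order of the classes stayed and the signs did not.

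**Figure D5:**
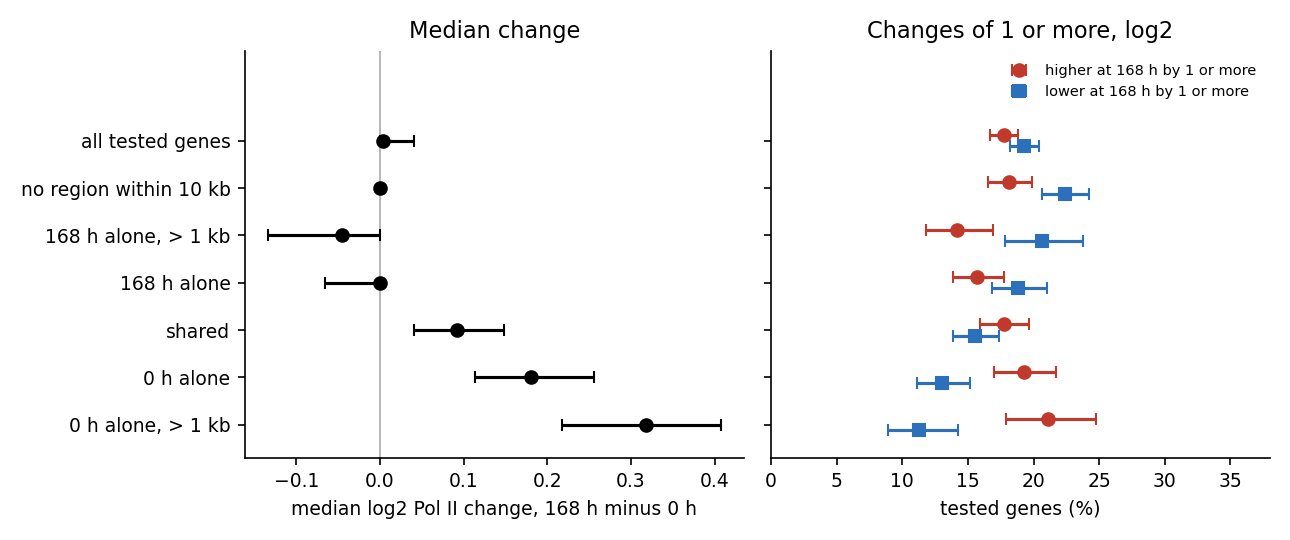
Pol II change from 0 h to 168 h over gene bodies, by the class of region whose nearest gene start is within 10 kb (rows; > 1 kb marks regions with no centre within 1 kb in the other full list). Left, median log2 change with its 95% interval. Right, share of tested genes (%) higher (circles) or lower (squares) by 1 or more, with Wilson 95% intervals. Genes of 0 h alone lie to the right with a median of 0.18, and genes of 168 h alone at 0.00.

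Single genes went both ways near either class. Among tested genes with a start within 10 kb of a region of 168 h alone, Pol II was higher at 168 h by most on Nnmt, a nicotinamide methyltransferase, from -0.13 to 7.61 (log2 change 4.02), on 1100001G20Rik from 0.25 to 7.78 (3.46) and on Lcn2 (3.42). Ddx5, Tifa, 1810013D15Rik, Tmem147 and Fgl1 followed, down to 2.97. All 8 except Tifa had a shared region within 10 kb as well. The largest differences downwards were on Cldn3, a tight junction protein, from 33.1 to -3.16 (log2 change -6.07), on 4732444A12Rik (-4.78), on Bcl2l1, an inhibitor of apoptosis, from 10.9 to -1.75 (-4.51) and on Zfp36l2 (-4.36). Rhbdl1, E230001N04Rik, Tesk1 and AC123686.11 followed.

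Near regions of 0 h alone, the largest differences upwards included Oat, ornithine aminotransferase, from 0.982 to 9.15 (2.70), and Socs3, the feedback inhibitor of interleukin-6 signalling, from 2.38 to 17.9 (2.68). 1100001G20Rik, Ddx5, 1810013D15Rik and Fgl1 were among the 8 here too, beside Tcp1 and AC155636.3. Downwards they were on Gpr182, from 12.2 to -0.08 (-4.67), Bcl2l1, Zfp36l2, Rhbdl1, AC123686.11, Irf2bp1, Fzd7, a Wnt receptor, and Foxa2, a liver pioneer factor, from 5.43 to -4.39 (-3.57). All 8 downwards again ended below 0 at 168 h, so their log2 sizes have the same limit. Of the 8 genes upwards and 8 downwards of each class, 4 and 4 were in both classes.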

How the data were processed

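Region lists for C/EBPalpha and C/EBPbeta and gene values for Pol II, each at 8 times, were used (24 files). Each score in a region list is the authors', per the file headers a difference or a sum, and runs from 1 to 1000 within its list. The deposited Pol II files give 1 signed score per gene row. Its size grows with the row's width and many values are negative, as for a background-corrected sum that starts some 500 bp inside the gene. Submitters' processing notes name Bowtie 0.12.7, MACS 1.4.1 and mm9. Which tool called the regions, with what filters and scaling, is not given in those notes or the file headers.

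Lists were cut to 20061 regions by score, ties by position. Gene starts were Pol II rows moved back by 500 bp. Genes with unique names and bodies of at least 500 bp, 20933 in all, were measured. Pol II values were divided by body width, and libraries were put on 1 scale with the median of ratios over 1472 genes, which moved 168 h against 0 h by 0.97 on the log2 scale. Alternatives for cut, distance, gene window, scaling and filter were tried. The scripts were tested on simulated data. Members and the 25 gene lists were chosen with earlier results of these data known.

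Named genes are the nearest measured genes of the 10 top regions of each time absent from the other full list, of the 10 largest rank rises and falls and of the 5 lowest rank sums. They also include the 8 largest Pol II rises and falls near each class, the 8 genes nearest to most regions of each time alone, the C/EBP family, and up to 5 members a gene list by rank of the class region. Regions set apart by 1 kb were added after the values were seen. Some genes that this rule names are not reported here.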

Additional observations from a re-analysis of the deposited data

How the results depend on the processing

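With regions sharing 1 bp counted as shared, 5529 regions were shared, with 14531 of 168 h alone and 14532 of 0 h alone. Lists cut to 10000 gave 6023 shared and 3977 alone in each, and the full lists 14050 of 0 h alone. With no centre within 1 kb in the other full list, chosen after seeing the data, 4018 (168 h) and 4829 (0 h) were alone. Other distances left class sizes within 1.5 times.

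The share near a gene start was higher for 168 h alone than for 0 h alone under every alternative tried. It was 12.8% against 4.03% within 500 bp, 22.4% against 14.1% within 2 kb, and 16.4% against 7.61% with measured genes only. It was 18.4% for 168 h alone with centres within 200 bp, and 20.2% against 6.21% with no centre within 1 kb. The median rank rise near starts was 813.5 in lists cut to 10000.

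Median Pol II changes moved with the scaling. Without rescaling they were -0.52 (all tested), -0.68 (168 h alone), -0.43 (0 h alone) and -0.50 (shared), the last pair reversed in sign. For 168 h alone the median was 0.0053 with genes within 1 kb, 0.046 at any distance and -0.083 for genes of 1 class. For 0 h alone it was 0.11 with a pseudocount of 2, 0.084 with rescaling over the 0 h and 168 h libraries, 0.0075 without the filter, and 0.32 with no centre within 1 kb. Apart from the filter and the scaling, whose construction changes the genes or the zero, the cause was not tested.

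Presence in C/EBPbeta lists kept its order between the classes. In full C/EBPbeta lists, regions of 168 h alone were found in 38.6% (0 h) and 68.9% (168 h), and those of 0 h alone in 56.5% and 29.8%. Within 200 bp the shares were 25.5% and 62.5%, and 41.5% and 30.03%. With no centre within 1 kb they were 9.18% and 48.8%, and 29.1% and 11.9%.

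Fatty acid oxidation genes with a region of 168 h alone and 0 h alone numbered 1 and 1 within 1 kb of the start, 22 and 26 within 50 kb, and 2 and 10 with no centre within 1 kb. G2/M genes numbered 3 and 0, 17 and 15, and 7 and 1. The gap between the times narrowed at 50 kb for both lists, and for fatty acid oxidation there was none within 1 kb. Of 125 alternative values, 58 stayed within the main value's interval or, for counts, within 1.5 times of it. No replicate could be left out in turn. No paired analysis was possible because each group has 1 sample. Depth limits cannot be given, since the files hold no counts.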
